A study of Mus musculus with 12 samples.

Results

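The data are 12 liver arrays of female mice, and the quantity described is how far the response to a high-fat diet differed between mice with and without estrogen receptor alpha. For every gene the difference between high-fat and normal diet was taken in each genotype, and the wild type difference was subtracted from the knockout difference. This value, called the response difference below, is positive where the knockout (aERKO, Esr1-/-) responded higher than wild type (WT, Esr1+/+) and negative where it responded lower. It uses all 12 of 12 arrays and was fitted for 12264 of the 18194 genes on the array that have an unambiguous probe set, namely those whose signal was above the array's own median on at least 3 of the 12 arrays.

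The mice were adult females on the B6.129 background, and each of the 4 groups had 3 arrays. WT and aERKO mice were fed either the NIH-31 normal diet or a research diet with 60 kcal% fat, and feeding lasted 2 weeks. The labels name whole liver as the tissue and Esr1-/- as the only allele, so the receptor is missing from every cell of the body and not from hepatocytes alone. No label says whether the 3 arrays of a group came from separate mice or pools, so p-values measure the spread between these arrays, which may be technical.

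Estrogen receptor alpha is a nuclear receptor that binds DNA as a dimer once estradiol is bound. In liver it acts in hepatocytes directly, and estrogen also acts through the pituitary, because the steady growth hormone secretion of females sets the level of many sex-biased P450 enzymes, sulfotransferases and transporters. Dietary fat is handled in the same cells by synthesis, oxidation, droplet storage, lipoprotein export and conversion of cholesterol to bile acids, and these pathways are the gene lists used here.

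Esr1 itself was lower on every aERKO array. Its signal was 2438, 3929.6 and 1963 on the 3 WT normal-diet arrays and 3212, 3676 and 3140.2 on the WT high-fat arrays, against 681, 586 and 601 and 885, 663 and 858 in aERKO. Which exons the allele lacks is not given in the sources used here, so the place of this probe set relative to the deletion is unknown. Arrays of 1 group correlated at 0.939 to 0.963 over all probe sets and array medians ran from 75.6 to 114.2, with 0 pairs of identical arrays. The mean log2 signal of 9 hepatocyte genes, among them Alb and Ttr, was 15.34 to 15.85 on the 12 arrays. Transcripts of 2 other tissues stood out on single arrays. For 11 pancreatic acinar genes that mean was 13.76 on WT normal array 2, 13.49 on aERKO normal array 1, 12.44 on WT high-fat array 3 and 9.94 on WT high-fat array 2, and 5.47 to 6.27 on the other 8. The same mean over 12 skeletal muscle genes was 10.66 on aERKO normal array 1, 8.83 on aERKO high-fat array 2, 7.27 on aERKO normal array 2 and 7.02 on WT normal array 3, and 5.74 to 6.20 on the other 8. Results below are also given without these arrays where that matters. In whole tissue, fewer cells of a type and less RNA per cell cannot be told apart.

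No response difference passed the test. Of 12264 genes, 0 (0%) had an adjusted p under 0.05 in limma's moderated test with Benjamini-Hochberg adjustment, and the lowest adjusted p was 0.177. At an unadjusted p under 0.05 there were 728 genes (5.94%), of which 397 (3.24% of all genes) were higher and 331 (2.7%) lower in aERKO. The quartiles of the response difference were -0.19 and 0.23 on the log2 scale, its 5th and 95th percentiles -0.62 and 0.74, and its median 0.02. The median standard error was 0.285 for a response difference and 0.202 for a diet difference within 1 genotype. Past a size of 1 on the log2 scale there were 513 genes.

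The diet differences of the 2 genotypes had a similar median size and a low correlation across genes. The median absolute diet difference was 0.164 in WT and 0.174 in aERKO, and across genes the correlation of the 2 differences was 0.11 (Pearson) and 0.15 (Spearman). These are descriptions over genes, which are not independent replicates. The contrasts share no arrays but do share scaling and each gene's variance estimate. Both medians were below the median standard error of a diet difference, 0.202. The low correlation therefore does not show that the genotypes responded differently. The 3 high-fat arrays did not overlap the 3 normal-diet arrays for 14.3% of genes in WT and 16.7% in aERKO. Non-overlap in both genotypes occurred in the same direction for 322 genes (2.63%) and in opposite directions for 60 (0.489%). Among the 728 genes with an unadjusted p under 0.05, only the aERKO diet difference reached that level in 312 and only the WT difference in 216, both did in opposite directions in 28 and in 1 direction in 13, and neither did in 159.

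**Figure D1:**
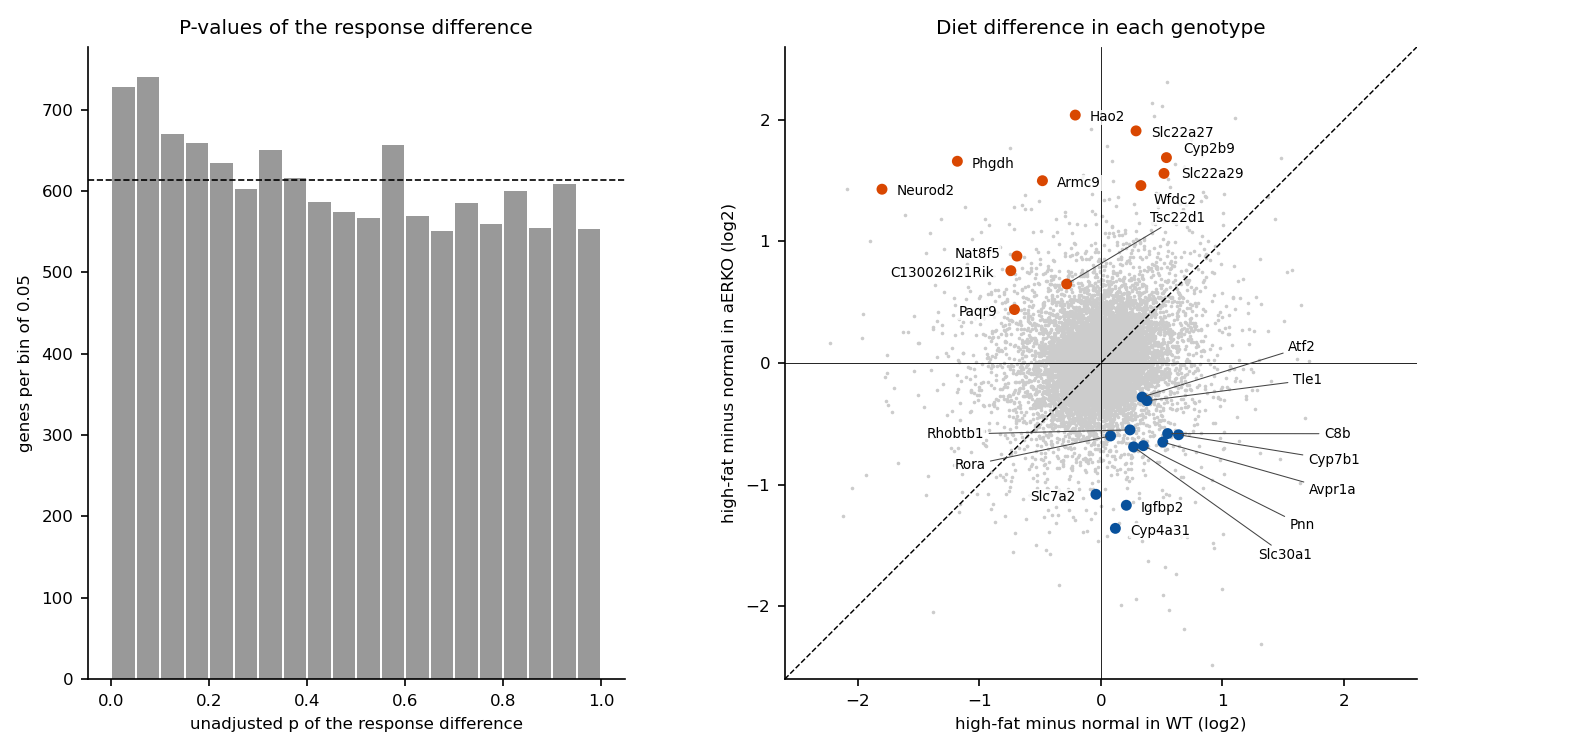
Left, number of genes in each 0.05-wide bin of the unadjusted p of the response difference, with a dashed line at an even spread; the lowest bin holds 728 genes. Right, log2 diet difference in WT (horizontal) against aERKO (vertical) for each gene, with the 12 lowest-p genes in each direction in orange (higher in aERKO) and blue (lower) and a dashed line of equal response; 6 genes lie outside the axes.

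Diet calls within each genotype set the frame for these differences. In WT, 2 genes rose (0.0163% of those tested) and 7 fell (0.0571%). In aERKO, 41 rose (0.334%) and 18 fell (0.147%). At an unadjusted p under 0.05 the counts were 527 up (4.3%) and 488 down (3.98%) in WT and 692 up (5.64%) and 573 down (4.67%) in aERKO. More genes passed in aERKO than in WT, but that is not a test of the difference, which no gene passed. The counts also depend on single arrays: without aERKO normal array 3 the aERKO count was 15, without aERKO high-fat array 2 it was 13, and without WT high-fat array 1 the WT count was 2.

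Some diet responses were shared by the genotypes. Called in both were 4 genes, 4 of the 9 WT calls and 4 of the 59 aERKO calls. Ces2a, a carboxylesterase of hepatocytes, fell by 1.17 in WT and by 1.22 in aERKO, and its response difference was -0.05 ± 0.18 (95% interval -0.43 to 0.32). Its signal went from 8265, 7421 and 6814 to 3065, 3394 and 3501 in WT and from 9300.4, 11031 and 9158 to 4646, 4488 and 3517 in aERKO. The diets did not overlap in either genotype. Pltp, which transfers phospholipid between lipoproteins, fell by 1.44 and by 1.09. Gamt, the last enzyme of creatine synthesis, rose by 0.90 and 0.85, and Tlcd2, a membrane protein with a TLC domain, rose by 0.82 and 0.99. For Gamt the 95% interval of the response difference was -0.46 to 0.37.

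The 41 genes that rose in aERKO had a median diet difference of 0.96 there and of 0.37 in WT, where they ranged from -0.48 to 1.48. The sign was the same in WT for 35 of them, 23 had an unadjusted p under 0.05 in that direction against 4.3% of all genes, and 2 were called. The 18 that fell in aERKO had a median of -0.77 there and of -0.07 in WT; 13 had the same sign, 4 reached an unadjusted p under 0.05 against 3.98% of all genes, and 2 were called. Both sets were chosen by their aERKO values, so these medians are a description. Among the genes called in aERKO that were near equal in WT were the steroid dehydrogenases Hsd3b2 (0.94 in WT, 0.96 in aERKO) and Hsd3b3 (0.86 and 0.90) and the prion protein gene Prnp (0.65 and 0.56). The peroxisomal enzyme Ehhadh fell by 0.79 in aERKO and stood at -0.54 in WT (adjusted p = 0.0626, limma).

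The other 5 WT calls, Scd1, Csad, Gstm1, Dbi and Rdh16, were not called in aERKO, and all 7 genes that fell in WT had a negative aERKO value, with medians of -1.17 and -0.35. Scd1, the desaturase that makes monounsaturated fatty acids, had a signal of 60662, 64080.4 and 55306 on the WT normal-diet arrays and 21181, 13222 and 33766 on the WT high-fat arrays. The aERKO arrays read 58246, 59284 and 49554 with the normal diet and 52753, 51368 and 36579 with the high-fat diet. Every WT high-fat array was below every other array. The WT fall was 1.50 (adjusted p = 0.0382, limma), the aERKO value -0.26, and the response difference 1.24 ± 0.34 (unadjusted p = 0.00289, adjusted p = 0.582). A dimmer Scd1 probe set (mean signal 1400 against 46300) was lower on high-fat diet in both genotypes. It stood at -1.83 in WT and -1.17 in aERKO, a response difference of 0.66 ± 0.41. Taurine synthesis was represented by the decarboxylase Csad, which fell by 1.93 in WT and stood at -0.92 in aERKO. The glutathione transferase Gstm1 fell by 0.72 against -0.24, the acyl-CoA binding protein Dbi by 0.67 against -0.21, and the retinol dehydrogenase Rdh16 by 0.66 against -0.35. All 4 probe sets of Gstm1 and all 4 of Dbi had a positive response difference, but its size varied. The smallest for Gstm1 was 0.18 ± 0.22, from -0.72 in WT and -0.53 in aERKO. For Dbi it was 0.01 ± 0.32, from -0.06 and -0.05.

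Sex-biased liver genes held several of the lowest p-values. Of 28 genes listed as higher in female than in male mouse liver, 18 were measured. Their median response difference was 0.43, against 0.02 over all genes, and 14 of 18 were positive, against 6395 of 12264. The median diet difference was 0.24 in WT and 0.48 in aERKO. With only genes above the median on all 12 arrays, which left 11 of the 18, the list's median was 0.28. Unadjusted p was under 0.05 for 4 higher and 1 lower member, against 3.24% and 2.7% of all genes. In aERKO 5 of the 18 rose with diet (Hao2, Slc22a27, Cyp2b9, Cyp2b13 and Cyp17a1), and in WT 0 did (limma, against 0.334% and 0.0163% of all genes). The same list was lower in aERKO than in WT on both diets, with a median of -2.45 under the normal and -1.56 under the high-fat diet; the response difference is by arithmetic the change between these. As mean centred log2 signal the list stood at -1.72 to -1.55 on the aERKO normal-diet arrays and -1.08 to -0.79 on the aERKO high-fat arrays, which do not overlap, and at 1.14 to 1.46 and 1.11 to 1.51 in WT, which do.

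Hao2 encodes a peroxisomal hydroxyacid oxidase and had the lowest p of the list. Its signal in WT was 2385, 3986 and 2613 (normal diet) and 2808, 1772 and 3217 (high-fat diet). In aERKO it was 187, 225 and 110.4 with the normal diet and 1076, 581 and 644 with the high-fat diet. The aERKO groups did not overlap, the WT groups did, and all aERKO arrays stayed below all WT arrays. It rose in aERKO by 2.04 (adjusted p = 0.00819), stood at -0.21 in WT, and its response difference was 2.25 ± 0.42 (unadjusted p = 0.000103, adjusted p = 0.211, limma).

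The P450 neighbours Cyp2b9 and Cyp2b13, both known for higher expression in female liver, rose together in aERKO. Their starts lie on chromosome 7, and their 250-base upstream windows from RefSeq (GRCm38.p6, plus strand) are shown because they are 99.2% identical (248 of 250 positions) and both members moved. Capitals mark the estrogen half-site letters GGTCA, which begin 137 and end 133 bases before the start in both.

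Cyp2b9, chr7:26173159-26173408: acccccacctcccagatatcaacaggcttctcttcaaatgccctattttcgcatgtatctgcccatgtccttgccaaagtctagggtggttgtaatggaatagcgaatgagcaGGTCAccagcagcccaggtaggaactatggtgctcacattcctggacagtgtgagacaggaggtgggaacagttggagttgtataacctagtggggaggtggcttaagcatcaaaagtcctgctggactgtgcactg
Cyp2b13, chr7:26061245-26061494: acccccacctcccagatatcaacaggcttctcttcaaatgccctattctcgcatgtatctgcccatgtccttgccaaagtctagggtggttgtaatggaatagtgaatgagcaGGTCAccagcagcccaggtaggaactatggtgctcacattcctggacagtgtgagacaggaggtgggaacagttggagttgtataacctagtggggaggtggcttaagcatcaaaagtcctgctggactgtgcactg

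Cyp2b9 signal was 9550.4, 11683 and 8361 and 14388, 13465 and 14989 in WT on normal and high-fat diet. The aERKO arrays had 2816, 4428 and 3126 and 13693, 9968 and 9755. High-fat arrays were above normal-diet arrays in both genotypes, and the aERKO step was larger, 1.69 (adjusted p = 0.000483) against 0.54, a response difference of 1.15 ± 0.24 (adjusted p = 0.28, limma). Cyp2b13 signal was 14020.0, 16196 and 13398 and 22209.9, 20111 and 19544 in WT, but 71.1, 70.1 and 75.2 and 616, 436 and 179.6 in aERKO. In aERKO on normal diet Cyp2b13 was below the median of every array, so the size of its rise rests on values near the floor. Its rise in aERKO was 2.12 (adjusted p = 0.00484) against 0.51 in WT, a response difference of 1.61 ± 0.41 (unadjusted p = 0.00158, adjusted p = 0.45). Without aERKO high-fat array 3, where its signal was 179.6, the response difference was 2.09 and passed (adjusted p = 0.00146). Probes of such close copies can bind each other's transcripts, so the pair is reported as uncertain.

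A pair of organic anion transporter genes of the Slc22 family, Slc22a27 and Slc22a29, behaved in the same way. Both lie on chromosome 19, minus strand, and their upstream windows (RefSeq, GRCm38.p6) are shown in contrast: they share 132 of 272 aligned positions (48.5%), and the half-site, here on the opposite strand and read as TGACC in capitals, begins 119 bases before the start in Slc22a27 and 73 in Slc22a29.

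Slc22a27, chr19:7966028-7966277: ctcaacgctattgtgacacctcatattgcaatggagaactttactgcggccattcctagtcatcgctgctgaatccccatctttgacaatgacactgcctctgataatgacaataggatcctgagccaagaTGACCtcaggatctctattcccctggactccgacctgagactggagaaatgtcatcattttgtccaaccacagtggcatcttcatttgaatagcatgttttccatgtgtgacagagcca
Slc22a29, chr19:8218901-8219150: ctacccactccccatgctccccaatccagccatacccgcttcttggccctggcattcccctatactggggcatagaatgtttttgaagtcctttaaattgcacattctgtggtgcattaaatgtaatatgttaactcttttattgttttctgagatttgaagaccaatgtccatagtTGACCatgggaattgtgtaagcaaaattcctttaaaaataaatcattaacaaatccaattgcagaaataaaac

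Slc22a27 signal in WT was 992, 1391 and 842 with the normal diet and 1264, 1297 and 1302 with the high-fat diet. In aERKO it was 113, 164 and 85.3 and 594, 402 and 475. WT groups overlapped and aERKO groups did not. The rise in aERKO was 1.91 (adjusted p = 0.0012), the WT value 0.29 and the response difference 1.62 ± 0.32 (adjusted p = 0.277, limma). Slc22a29 was 1407, 1619.7 and 1352 and 2259.8, 2098 and 1931 in WT, and 298, 348 and 474 and 1248, 989 and 1108 in aERKO. Both genotypes were higher on high-fat diet without overlap, by 0.52 in WT and 1.56 in aERKO, and the response difference was 1.04 ± 0.23 (adjusted p = 0.315). Both probe sets are of the type whose probes can match related transcripts, so the pair may share signal. Other female-biased members went either way: the P450 Cyp17a1 stood at 0.51 in WT and rose by 1.16 in aERKO, the sulfotransferases Sult2a2 and Sult3a1 had response differences of 2.08 ± 1.12 and 1.39 ± 0.66, and Tox was at -1.02 ± 0.34.

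The full palindromic element, searched as GGTCANNNTGACC on both strands, was in the 250-base upstream window of 21 of 32851 RefSeq starts (0.0639%) and of 0 of the 20 genes with a window among the 24 of lowest p, 12 in each direction. The half-site GGTCA was in 35.2% of all windows and in 8 of these 20 (Nat8f5, Slc22a27, Tsc22d1, Phgdh, Cyp2b9, Slc22a29, C8b and Atf2). The STAT5 letters TTCNNNGAA were in 7.02% and in 2 of 20 (Tsc22d1 and Armc9). Every full element also counts as a half-site match.

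The 18 measured of 28 male-biased genes ran the other way, with a median response difference of -0.37, 6 of 18 positive, and medians of 0.29 in WT and -0.30 in aERKO. Members with an unadjusted p under 0.05 were 5 lower and 1 higher, where 2.7% and 3.24% of all genes were, and 0 were called for diet in either genotype. Their median aERKO minus WT difference was 1.46 under the normal and 1.15 under the high-fat diet. Keeping only genes above the median on all 12 arrays reduced the list's median to -0.12.

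C8b, the beta chain of complement component 8, led this list. Its signal in WT was 1131, 948 and 829 with the normal diet and 1381, 1599 and 1293 with the high-fat diet. The aERKO values were 3283, 3455 and 2943 and 1817, 2259 and 2402. The WT arrays were higher and the aERKO arrays lower on high-fat diet, with no overlap in either, so that the genotypes came closer. The values were 0.55 in WT and -0.58 in aERKO, and the response difference was -1.14 ± 0.20 (unadjusted p = 7.59e-05, adjusted p = 0.203, limma). Further terminal complement members were at -0.90 ± 0.34 (C6) and -0.36 ± 0.20 (C9). Cyp4a12a, a male-biased fatty acid hydroxylase, was at -2.45 ± 0.75. It was dim in WT (77.6, 28.2 and 7.3 and 47.2, 136 and 53.4), and in aERKO it went from 9659.6, 7314 and 6854 to 1162, 3346 and 5212.

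**Figure D2:**
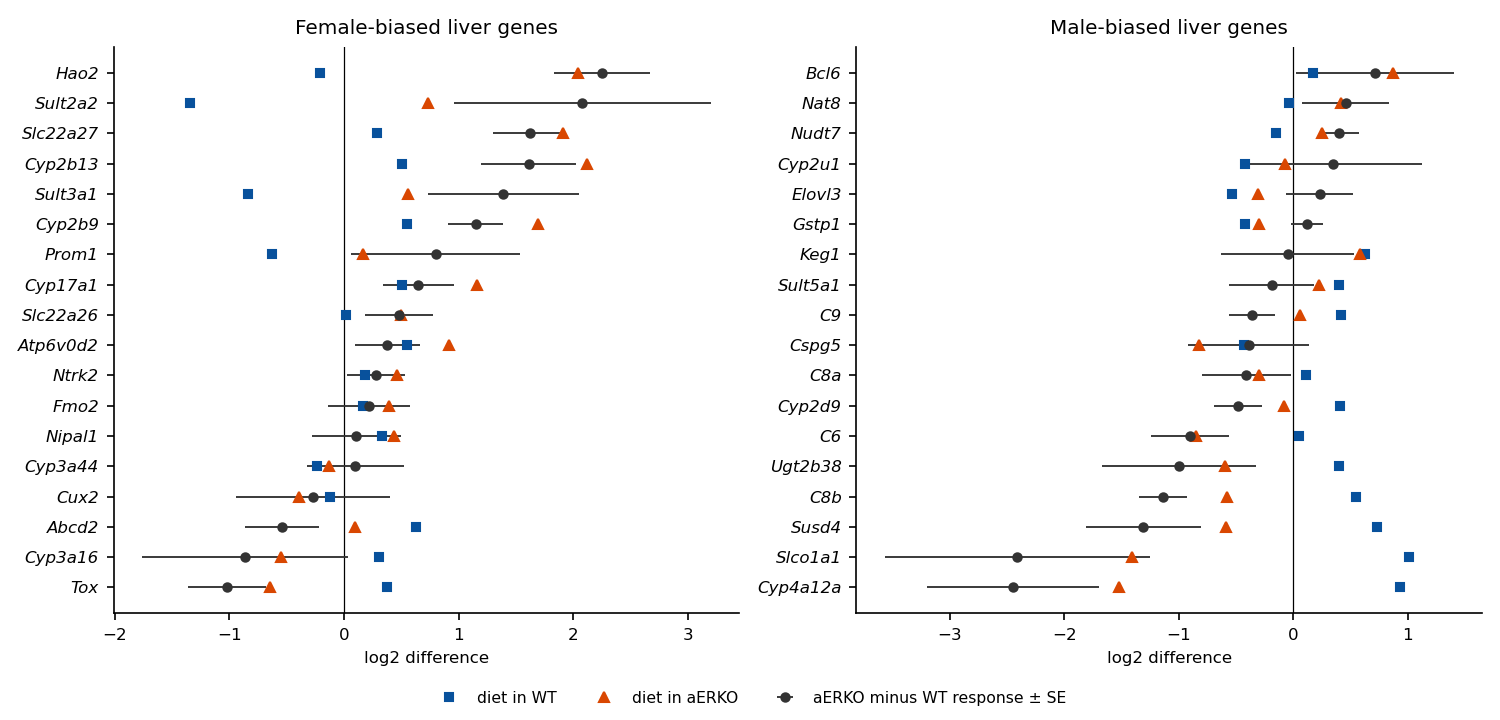
Log2 diet difference in WT (squares) and aERKO (triangles), and their difference (circles, bars ± SE), for the 18 measured female-biased genes (left) and the 18 measured male-biased genes (right). Hao2 at 2.25 and Cyp4a12a at -2.45 are the ends of the lists.

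Wfdc2, a secreted WAP-domain protein, had the lowest p of all genes. Its signal was 670.3, 728 and 725 and 955, 774 and 962 in WT on normal and high-fat diet. The aERKO arrays gave 697, 797 and 643 and 2105, 1982 and 1851. On normal diet the genotypes overlapped, and on high-fat diet every aERKO array was well above every WT array. It rose in aERKO by 1.46 (adjusted p = 0.000297), stood at 0.33 in WT, and its response difference was 1.13 ± 0.18 (95% interval 0.73 to 1.52, unadjusted p = 2.64e-05, adjusted p = 0.177, limma).

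Igfbp2, which binds insulin-like growth factors in plasma, was the lowest-p gene on the lower side. Its WT signal was 14751, 9157 and 13086 with the normal diet and 13332, 14837 and 13894 with the high-fat diet. In aERKO it was 7817, 11915 and 11131 and 4110.5, 4883 and 4498. The 3 aERKO high-fat arrays were below the other 9. It fell by 1.17 in aERKO (adjusted p = 0.0087), stood at 0.21 in WT, and its response difference was -1.38 ± 0.24 (95% interval -1.91 to -0.86, adjusted p = 0.203, limma). With the acinar and muscle scores as covariates it passed (-1.56, adjusted p = 0.0203). Avpr1a, the vasopressin receptor of hepatocytes, was 649, 562 and 614 and 792, 909 and 926 in WT, and 348, 439 and 518 and 290.3, 222 and 299 in aERKO. It was higher on high-fat diet in WT and lower in aERKO, without overlap, and its response difference was -1.16 ± 0.24 (adjusted p = 0.279). The hormone receptor and growth hormone list (20 of 22 measured) had 6 positive members and a median of -0.11. Of its members 1, Igfbp2, was under an unadjusted p of 0.05, against 5.94% of all genes. The list's next members were Gper1, a membrane estrogen receptor, at 0.77 ± 0.42 and the transcription factor Foxa2 at -0.43 ± 0.27.

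**Figure D3:**
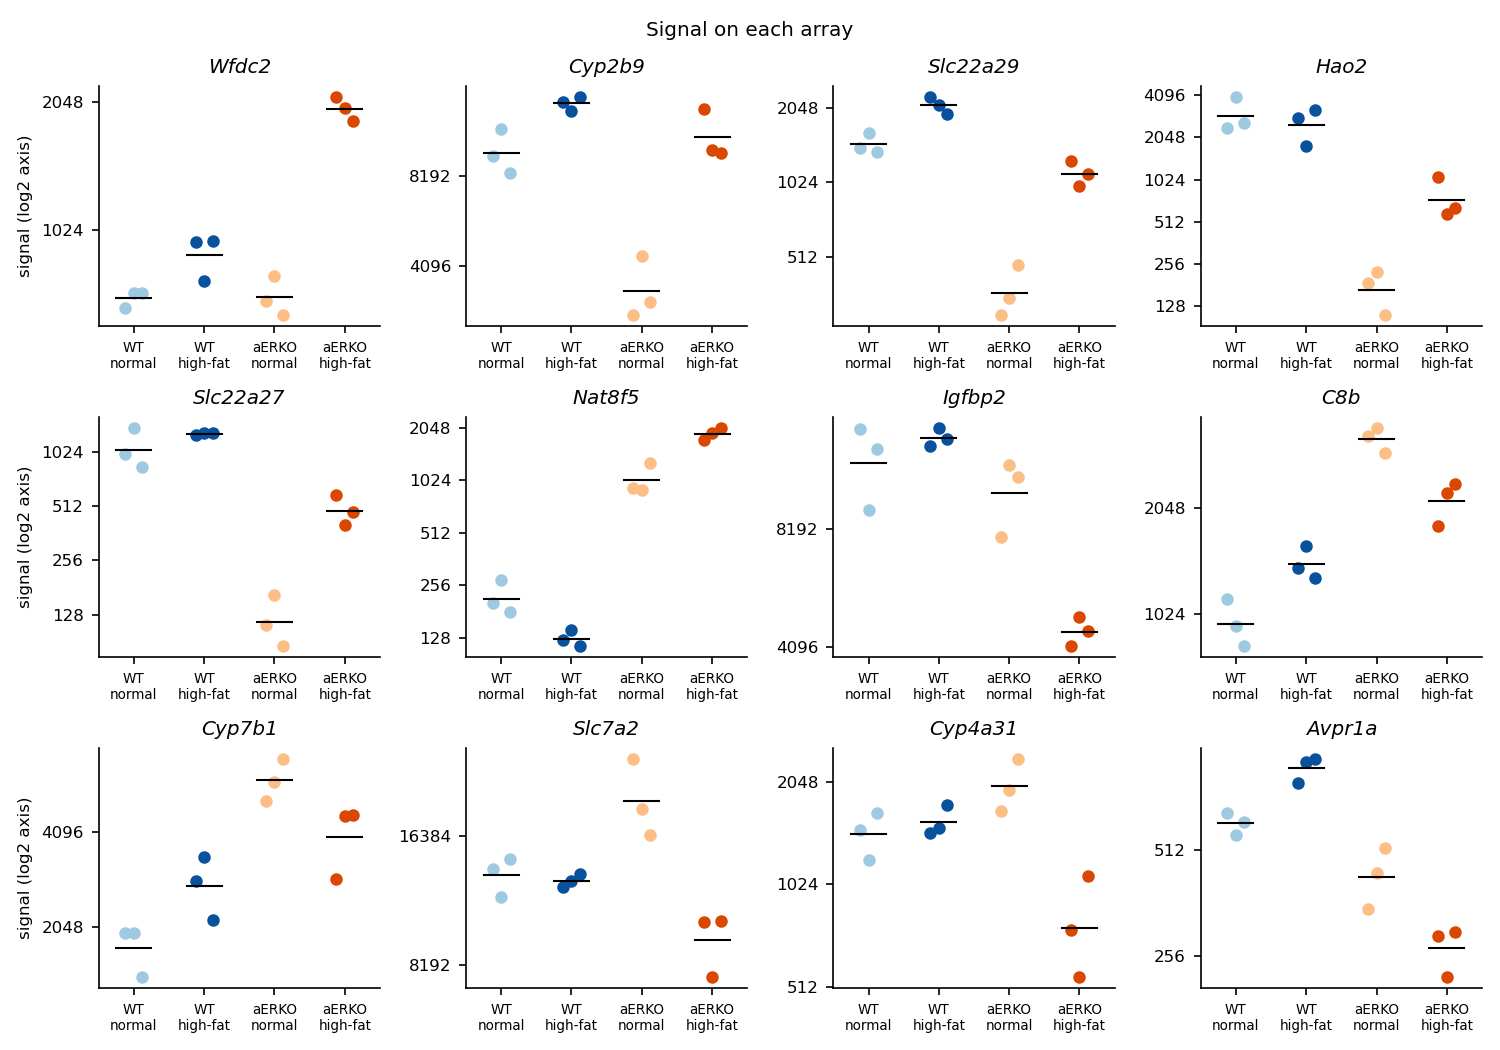
Signal on each of the 12 arrays (points, log2 axis) for 12 of the 24 lowest-p genes, by group; horizontal lines are geometric means. Wfdc2 is high only on the aERKO high-fat arrays (1851 to 2105), and Igfbp2 is low only there (4110.5 to 4883).

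Among enzymes and transporters of amino acids and small solutes, Nat8f5, a member of the N-acetyltransferase 8 family, moved apart between the genotypes. Its signal was 201, 273 and 179 with the normal diet and 125, 142 and 114 with the high-fat diet in WT. The aERKO arrays were at 922, 903 and 1288 and 1737, 1910.5 and 2039. It was higher in aERKO than in WT on normal diet by 2.17 and on high-fat diet by 3.74, and its response difference was 1.57 ± 0.26 (adjusted p = 0.177). Slc7a2, a transporter of arginine and lysine, was 13719, 11810.5 and 14465 and 12468, 12859 and 13327 in WT and 24799.7, 18919 and 16488 and 10332, 7650.5 and 10346 in aERKO. It fell by 1.08 in aERKO (adjusted p = 0.00484) and stood at -0.04 in WT, a response difference of -1.03 ± 0.21. All 4 of its probe sets were negative, from -1.03 to -0.38. Phgdh, which starts serine synthesis, was 202, 322 and 495 and 131, 55.2 and 292 in WT and 92.4, 92.3 and 71 and 363, 272 and 276 in aERKO. Its WT groups overlapped, and the response difference was 2.84 ± 0.60 (adjusted p = 0.28). Its probe sets disagreed, from -0.14 to 2.84 over the 3 that passed the filter, and their mean gave 0.91. Slc30a1, which exports zinc from cells, was at -0.96 ± 0.22, with probe sets from -0.96 to -0.09. Paqr9, of the progestin and adipoQ receptor family, was lower on high-fat diet in WT (7622, 8645 and 6460.5 against 4156, 4340.3 and 5365) and overlapped in aERKO (3785, 4154 and 5845 against 6244, 6707 and 5459.6), with a response difference of 1.15 ± 0.23.

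Cholesterol and bile acid genes had medians of opposite sign. All 20 measured of 24 cholesterol synthesis and uptake genes had a positive response difference, with a median of 0.39 and a range of 0.03 to 1.03. However, 0 of 20 had an unadjusted p under 0.05 (limma), against 5.94% of all genes. The median diet difference was 0.15 in WT and 0.57 in aERKO, with 0 called in either. The lowest p belonged to Mvd (0.84 ± 0.41), Nsdhl (0.76 ± 0.40) and the squalene epoxidase Sqle (1.03 ± 0.55), all enzymes of the pathway. Genes of this pathway are regulated together, so 20 positive values are not 20 observations. The list's centred level on the aERKO high-fat arrays was -0.04, 0.18 and 0.93, and without array 3, the highest, its median response difference was 0.15. In WT the high-fat arrays were at -0.29, -0.07 and 0.39, which overlap the normal-diet arrays at -0.38, 0.02 and -0.06.

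Bile acid and sterol export genes (21 of 21 measured) had 5 positive members and a median of -0.10. At an unadjusted p under 0.05 there were 2 lower and 0 higher members, where 2.7% and 3.24% of all genes were. Cyp7b1, the oxysterol hydroxylase of the alternative bile acid pathway, was 1964, 1964 and 1416 and 2868, 3415 and 2154 in WT and 5145, 5914 and 6986 and 2898, 4595 and 4653 in aERKO. The WT arrays were higher and the aERKO arrays lower on high-fat diet, without overlap, and the genotypes came closer. The response difference was -1.24 ± 0.30 (unadjusted p = 0.000953, adjusted p = 0.437, limma). Its 2 probe sets that passed the filter were at -1.24 and -1.18. The mean of all 3 was -0.71, and the remaining probe set, with a mean signal of 23.6, was above the array median on 0 arrays. Abcg8, a subunit of the sterol exporter into bile, was at -0.64 ± 0.29, and Cyp27a1, another oxysterol enzyme, at -0.30 ± 0.15. The mean of the 2 Cyp27a1 probe sets was 0.40. The one not used had a mean signal of 14.2, against 11700, and was above the array median on 0 arrays.

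Fatty acid synthesis and droplet genes had a positive median response difference and a negative median diet difference in WT. Of 20 fatty acid synthesis genes 19 were measured, with a median response difference of 0.18, 14 positive, and 4 higher and 0 lower at an unadjusted p under 0.05, where 3.24% of all genes were higher and 2.7% lower. The median was 0.28 to 0.31 on leaving out 1 of 4 arrays (WT normal 3, WT high-fat 3, aERKO normal 2 or aERKO high-fat 1). Over all alternatives it ran from 0.12, without the 4 arrays with pancreatic transcripts, to 0.45, as the mean of all probe sets. The median diet difference was -0.12 in WT and -0.01 in aERKO. Besides Scd1 these 4 were Pklr, the liver pyruvate kinase, at 0.84 ± 0.28, the citrate carrier Slc25a1 at 0.48 ± 0.17, and the malic enzyme Me1 at 0.43 ± 0.17. Pklr differed from the others in that it rose in aERKO by 1.15 (adjusted p = 0.0225) and stood at 0.31 in WT.

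Of 27 lipid droplet and triglyceride storage genes 26 were measured, with a median response difference of 0.25, 19 positive, and 8 higher and 0 lower at an unadjusted p under 0.05, where 3.24% of all genes were higher. The list's median was -0.24 in WT and 0.05 in aERKO. Mogat1, which makes diacylglycerol, was at 1.36 ± 0.45, but at 0.88 without WT high-fat array 2 and at 0.68 without the 4 arrays with pancreatic transcripts. The fatty acid transporter Cd36 was at 1.15 ± 0.40, and Cidec, which fuses droplets, at 1.84 ± 0.66. Cidec signal was 524, 199 and 902 and 143, 74.7 and 259.8 in WT, where single arrays varied several-fold and the groups overlapped, and 825, 766 and 775 and 1333, 1066 and 594 in aERKO. Its relative Cidea was at 1.90 ± 0.74, the nuclear receptor Pparg at 1.02 ± 0.41 and the droplet dehydrogenase Hsd17b13 at 0.30 ± 0.13. Fitm1, which helps form droplets, was at 0.76 ± 0.29. Agpat2, which makes phosphatidic acid, was the 1 member called for diet: it rose in aERKO by 0.59 (adjusted p = 0.0466) and stood at 0.15 in WT, a response difference of 0.44 ± 0.16. By array the list was at 0.11, -0.21 and 0.07 in WT under the normal diet and -0.40, -0.48 and -0.09 under the high-fat diet, which overlap, and at 0.27, 0.14 and 0.00 against 0.29, 0.27 and 0.03 in aERKO. Without the 4 arrays with pancreatic transcripts, which leaves 1 WT high-fat array that is assumed to vary like the others, the list's median was 0.47 and 23 of 26 were positive.

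Fatty acid oxidation did not stand apart. The 28 measured of 31 PPAR alpha target and oxidation genes had a median response difference of 0.02, as over all genes, and 17 were positive. At an unadjusted p under 0.05 there were 1 higher and 2 lower members, where 3.24% and 2.7% of all genes were. Cyp4a31, a fatty acid hydroxylase, was the exception. Its signal was 1484, 1207 and 1660.1 and 1447, 1498 and 1754 in WT, which overlap. The aERKO groups were 1688, 1947 and 2399 and 753, 545 and 1082, which do not. It fell by 1.36 in aERKO (adjusted p = 0.012), stood at 0.12 in WT, and the response difference was -1.48 ± 0.30 (adjusted p = 0.279, limma). The peroxisome factor Pex11a was at 0.40 ± 0.15 and Hadhb, a subunit of the mitochondrial trifunctional protein, at -0.50 ± 0.20. The Hadhb probe sets disagreed, from -0.70 to 0.08 over the 3 that passed the filter. The probe set at 0.08 ± 0.15 had a mean signal of 18000, against 20800 for that used. Lipoprotein genes (19 of 21 measured) had a median of 0.09, with Apoa4, an apolipoprotein of triglyceride-rich particles, at 1.19 ± 0.38, the cholesterol acyltransferase Lcat at -0.29 ± 0.13 and Apoc2, the cofactor of lipoprotein lipase, at 0.38 ± 0.18.

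Glucose metabolism and insulin signalling genes (18 of 21 measured) had 6 positive members and a median of -0.09, which turned to 0.02 without aERKO normal array 1 and was -0.25 without array 2, with 2 lower at an unadjusted p under 0.05 (2.7% over all genes). These were Foxo1, the transcription factor that insulin excludes from the nucleus, at -0.66 ± 0.23, and the liver glycogen synthase Gys2 at -0.56 ± 0.22. The Foxo1 probe sets ran from -0.66 to -0.05 over the 3 that passed the filter, and the mean of all its probe sets gave -0.33. The gluconeogenic enzyme Pck1 was at -0.34 ± 0.18. The xenobiotic list (25 of 28 measured) had 6 higher and 0 lower members at an unadjusted p under 0.05, where 3.24% of all genes were higher and 2.7% lower. Its median was 0.14. The median was 0.27 without WT normal array 3, 0.26 without aERKO high-fat array 3 and 0.09 without WT normal array 1. Gstm1, Gstm2 and Gstm3, glutathione transferases of 1 gene cluster that can share probe signal, were at 0.48 ± 0.16, 0.75 ± 0.28 and 0.88 ± 0.33. The retinal dehydrogenase Aldh1a1 was at 0.32 ± 0.11, its relative Aldh1a7 at 0.44 ± 0.18, and Cyp2e1 at 0.40 ± 0.15.

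**Figure D4:**
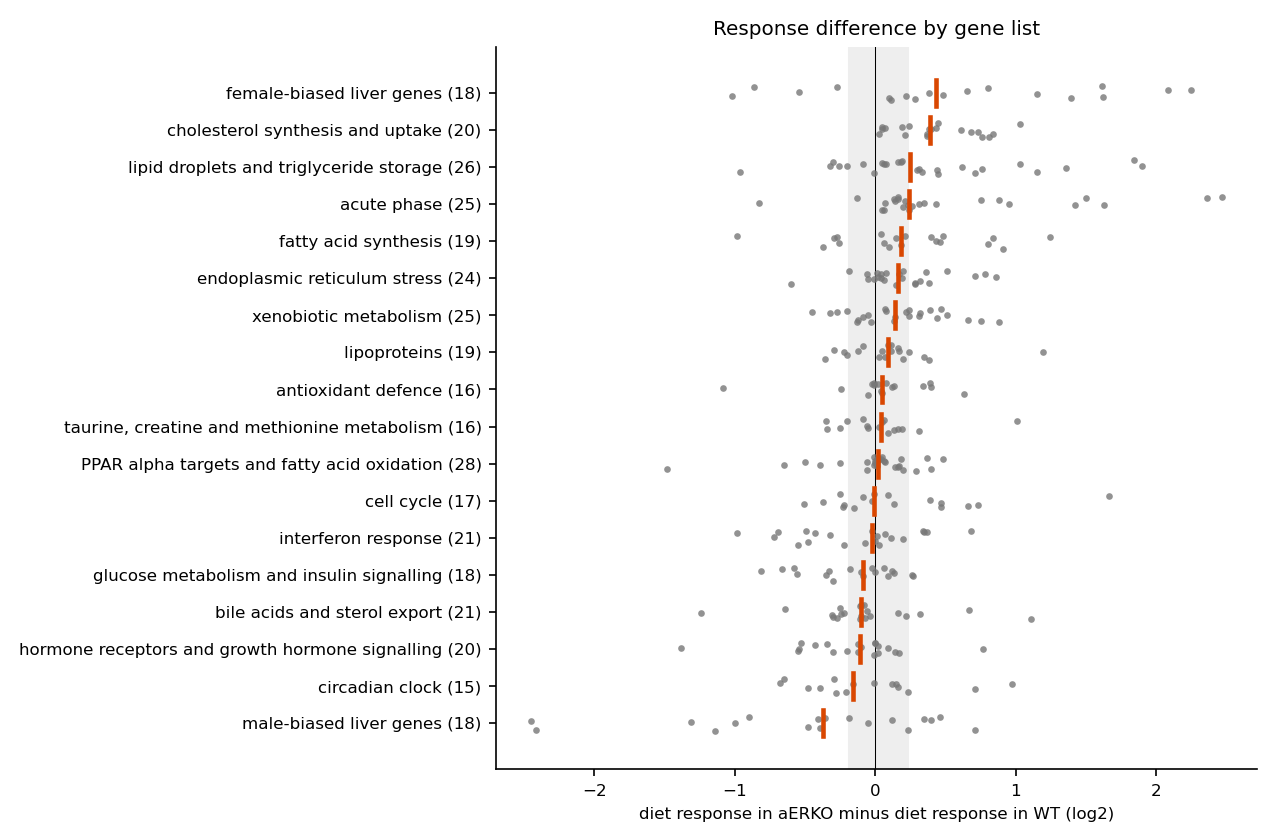
Response difference (log2) of each measured gene (points) in 18 gene lists, with list medians as orange bars and the number measured in brackets; the grey band spans the quartiles of all genes (-0.19 to 0.23). Medians run from -0.37 (male-biased genes) to 0.43 (female-biased genes).

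The acute phase list (25 of 27 measured) had 23 positive members and a median of 0.24, but its level varied widely among arrays of 1 group. On normal diet it was 0.45, 0.21 and -0.48 in WT and 0.82, -0.60 and -0.01 in aERKO. On high-fat diet it was -0.36, -0.33 and -0.38 in WT and 0.60, 0.37 and -0.31 in aERKO. The lowest p were those of the orosomucoids Orm2 (2.36 ± 0.995) and Orm1 (0.75 ± 0.34), which can share probe signal, and of serum amyloid P, Apcs (0.88 ± 0.42). Endoplasmic reticulum stress genes (24 of 24 measured) had 19 positive members, a median of 0.16 and 3 higher at an unadjusted p under 0.05 (3.24% over all genes): the chaperone partner Creld2 (0.78 ± 0.26), the secreted stress protein Manf (0.86 ± 0.31) and calreticulin, Calr (0.38 ± 0.16). Without the 4 arrays with pancreatic transcripts the list's median was 0.07, Manf was at 0.27 and Calr at 0.17; acinar cells are rich in these transcripts, and the part of the acinar signal in this list was not tested.

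Interferon response genes (21 of 25 measured) had a median of -0.02 and 10 positive members. Usp18, which restrains interferon signalling, was at -0.98 ± 0.33, the interferon signal carrier Stat2 at 0.68 ± 0.31 and the GTPase Gbp3 at -0.72 ± 0.34. Without the 4 arrays with pancreatic transcripts the list's median was -0.61 with 3 of 21 positive, so its value rests on those arrays.

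Clock genes included called diet changes in both directions in aERKO. Of 19 listed, 15 were measured, with a median response difference of -0.16 and 6 positive. The median turned to 0.06 without WT normal array 2, was -0.01 and -0.02 without WT high-fat array 2 and aERKO high-fat array 1, and was -0.30 with array weights, so its direction rests on single arrays. Rora, a nuclear receptor that activates Bmal1, was 2565, 2398 and 2160.3 and 2606, 2651 and 2253 in WT and 3009.7, 2958 and 2666 and 1847, 1859 and 1968 in aERKO, where every high-fat array was lower. It fell by 0.60 in aERKO (adjusted p = 0.0304, limma), and its response difference was -0.68 ± 0.15. All 8 of its probe sets that passed the filter were negative, from -0.68 to -0.11. The mean of all 9 was -0.22, which includes a probe set at 1.79 that was above the array median on only 2 arrays. The repressor Cry1 rose in aERKO by 1.07 (adjusted p = 0.0487) and stood at 0.10 in WT, a response difference of 0.97 ± 0.31 (adjusted p = 0.729, limma). Bhlhe40, another clock repressor, was at -0.39 ± 0.26. The labels give no hour of collection.

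Tsc22d1, a leucine zipper protein induced by TGF beta, was 2689, 3595 and 2761 and 2361, 2434 and 2596 in WT and 3401, 4564 and 4260.3 and 6031, 5932 and 7109.9 in aERKO, with a response difference of 0.92 ± 0.20. Pnn, a nuclear protein linked to splicing, was 1443, 1406 and 1232 and 1787, 1862 and 1572 in WT and 2189, 2796 and 2439 and 1325, 1704 and 1585 in aERKO. It fell by 0.68 in aERKO (adjusted p = 0.045) and stood at 0.35 in WT, a response difference of -1.03 ± 0.19; its 3 probe sets ran from -1.03 to -0.04. On the probe sets used for Tsc22d1 and Pnn, the diets separated in opposite directions. Atf2, a leucine zipper transcription factor, was at -0.62 ± 0.15, the corepressor Tle1 at -0.69 ± 0.17 and Rhobtb1 at -0.79 ± 0.19. Probe sets that passed the filter ran from -0.62 to -0.26 for Atf2 and from -0.69 to -0.10 for Tle1. For Rhobtb1 they ran from -0.79 to -0.34.

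Signal below the array median throughout a group limits 3 of the 12 genes on the higher side. C130026I21Rik was below the array median on all WT high-fat arrays (78.6, 86.5 and 81.2, against 143, 165 and 138 on normal diet), and stood at 108, 86.6 and 111 and 198, 175 and 175 in aERKO. Armc9, a cilium protein, was below it on all aERKO normal-diet arrays (48.5, 27.1 and 57.6, against 142, 133 and 181 on high-fat diet). Neurod2, a neuronal transcription factor, was below it on both the WT high-fat arrays (17.6, 13.1 and 24) and the aERKO normal-diet arrays (20.7, 17.4 and 12.9). Their response differences, 1.50 ± 0.32, 1.98 ± 0.43 and 3.23 ± 0.70, therefore rest on values near the floor. With a pseudocount of 64 that of Neurod2 was 1.80, and the mean over all probe sets gave 0.65 for Armc9 and 1.04 for Neurod2. On aERKO normal array 3, Phgdh (71) and Slc22a27 (85.3) were also below the array median of 89.9. Slc22a27 was at 1.32 with a pseudocount of 64.

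The remaining metabolic and growth lists lay near the median of all genes. Taurine, creatine and methionine genes (16 of 18 measured) had a median of 0.04, with Csad at 1.01 ± 0.37, Cbs, which makes cystathionine, at -0.35 ± 0.17 and Bhmt, which remethylates homocysteine, at 0.16 ± 0.13. Antioxidant genes (16 of 19 measured) had a median of 0.05. In them the NADPH oxidase Nox4 was at -1.08 ± 0.27, the lipid peroxide reductase Gpx4 at 0.63 ± 0.20 and the thioredoxin reductase Txnrd1 at 0.34 ± 0.18. Cell cycle genes (17 of 24 measured) had a median of -0.01, with Ccna2 at 1.67 ± 0.63, the inhibitor Cdkn1b at -0.37 ± 0.20 and Cdc20 at 0.66 ± 0.43. The Cdc20 probe sets disagreed, from -1.25 to 1 over the 3 that passed the filter, and their mean gave 0.14. Ccna2 was below the array median in WT on high-fat diet and in aERKO on normal diet, so its value rests on signal near the floor; with a pseudocount of 64 it was 0.98.

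Leap2, a liver hormone that opposes ghrelin, is named after its values were seen, because it passed once an array was left out. Its signal was 7959, 7446 and 7843 and 6538, 8046 and 7961 in WT and 7196, 6457 and 7354 and 19511, 14407 and 9502 in aERKO. The 3 aERKO high-fat arrays were above the other 9. It rose in aERKO by 0.99 (adjusted p = 0.0386), stood at -0.05 in WT, and its response difference was 1.04 ± 0.27 (adjusted p = 0.45, limma). Without aERKO high-fat array 3 it was 1.31 (adjusted p = 0.0446).

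Cell type lists gave the response difference of transcripts typical of each cell type or tissue. Pancreatic acinar genes (11 of 14 measured) had 0 positive members and a median response difference of -3.40, with wide errors. Cela2a was at -4.84 ± 3.39, Ctrl at -4.23 ± 3.33 and Cpa1 at -4.62 ± 3.71. Of the acinar genes 0 had an unadjusted p under 0.05 (limma), against 5.94% of all genes. Without the 4 arrays with pancreatic transcripts the acinar median was -0.04. Muscle genes (10 of 12 measured) were at -0.87, with Pvalb at -1.23 ± 0.71, Ckm at -1.66 ± 1.43 and Eno3 at -0.45 ± 0.58, and at -0.60 without the 2 arrays of highest muscle signal. Both the direction and the size of the muscle median depended on single arrays: it turned to 1.07 without the 4 arrays with pancreatic transcripts, to 0.76 with array weights, to 0.20 with both tissue scores in the model and, when aERKO normal array 1 was left out, to 0.74. It was -2.25 without aERKO high-fat array 2, -2.18 without aERKO normal array 3, and -0.55, -0.26 and -0.15 without WT normal array 2 and aERKO high-fat arrays 1 and 3. The hepatocyte list was at 0.15 (9 of 11 measured), with Cyp2e1 as above, Alb at 0.30 ± 0.14 and Ttr at 0.26 ± 0.14. Pericentral genes (14 of 14 measured) were at 0.19 (0.04 without aERKO normal array 1), with the transporter Slc1a4 at 0.69 ± 0.35, the junction protein Cldn2 at 0.38 ± 0.22 and Cyp27a1 as above. Periportal genes (13 of 15 measured) were at -0.01, with Aldh1b1, which rose in aERKO by 0.88 (adjusted p = 0.0173), at 0.50 ± 0.20.

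In the non-parenchymal lists 0 members were called for the response difference, as over all genes (0 of 12264, 0%). At an unadjusted p under 0.05 (limma) there was 1 lower member in the endothelium list, Bmp2. The other lists of this paragraph had 0 members under that level, where 5.94% of all genes were. Sinusoidal endothelium (12 of 12 measured) had a median of -0.23, which was -0.06 without aERKO normal array 2, and 4 positive members, with the angiocrine factor Bmp2 at -0.42 ± 0.18, the cadherin Cdh5 at -0.50 ± 0.26 and the receptor Flt4 at -0.43 ± 0.31. Kupffer cell and macrophage genes (14 of 17 measured) were at 0.02, with Itgax at 0.63 ± 0.48, Cd163 at -0.32 ± 0.27 and C1qa at 0.28 ± 0.23. Stellate cell and matrix genes (15 of 16 measured) were at 0.11, with the filament gene Des at 1.68 ± 0.94 and the collagens Col3a1 at 0.67 ± 0.38 and Col5a1 at 0.46 ± 0.40. Des ran from 1.12 to 2.59 on leaving out 1 array and was at 0.16 without the 4 arrays with pancreatic transcripts. Small lists were too thin for a statement: cholangiocyte (4 of 9 measured) at 0.25 (-1.16 without the 4 pancreatic arrays), with Prom1 at 0.80 ± 0.74, Epcam at -0.37 ± 0.46 and Krt19 at 0.51 ± 0.98; lymphocyte (9 of 15) at -0.23, with Cd79b at 0.73 ± 0.53, Ccl5 at 0.33 ± 0.44 and Ms4a1 at -0.36 ± 0.60. Neutrophil genes (6 of 10) were at -0.17, with Ngp at -1.21 ± 0.60, Elane at 0.91 ± 0.86 and Mpo at -0.35 ± 0.47. Adipocyte genes (3 of 8) were at -0.02, with Adipoq at -0.82 ± 0.78, Acvr1c at 0.26 ± 0.57 and Car3 at -0.02 ± 0.14, and the red blood cell list had 1 measured gene of 7, Alas2, at 0.03 ± 0.31.

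**Figure D5:**
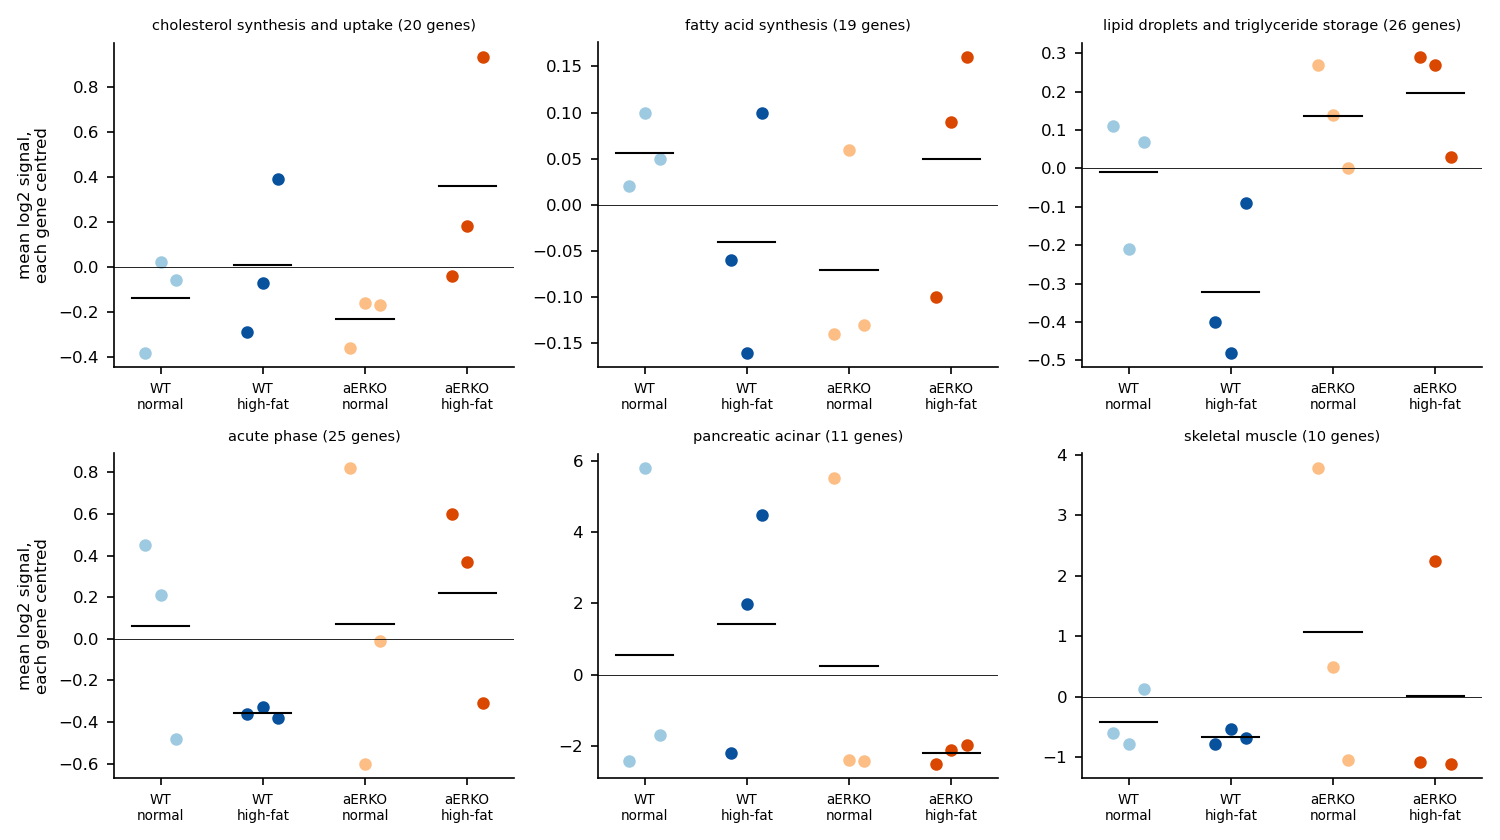
Mean log2 signal of 6 gene lists on each array, each gene centred on its mean over the 12 arrays; horizontal lines are group means. The cholesterol list is highest on aERKO high-fat array 3 (0.93), and the acinar and muscle lists stand out on single arrays.

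Further genes called for diet in aERKO give the range of these responses. Dio1, the deiodinase that activates thyroid hormone, rose by 1.31 (adjusted p = 0.000825) and stood at 0.65 in WT (unadjusted p = 0.000589, adjusted p = 0.16), a response difference of 0.66 ± 0.21. The aldo-keto reductase Akr1c20 rose by 1.01 and stood at 0.36, a response difference of 0.66 ± 0.16. Its dimmer probe set (mean signal 407 against 9190) stood at 0.51 in aERKO and 0.33 in WT, a response difference of 0.18 ± 0.32. The water channel Aqp8 rose by 1.61 against 0.68. Txnip, a glucose-responsive thioredoxin inhibitor, fell by 0.50 (adjusted p = 0.0466) against 0.00 in WT. Agxt, which detoxifies glyoxylate, fell by 0.73 against -0.09, and the heme-regulated repressor Bach1 by 0.70 against 0.03. None of these response differences passed the adjusted threshold, and the lowest adjusted p among this last group was 0.437 (limma).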

How the data were processed

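Total RNA from 12 liver samples was hybridised to Affymetrix mouse arrays with 45101 probe sets. Per the submitters' processing notes the authors ran MAS5 in Affymetrix Expression Console (no version stated). The deposited values are linear intensity, scaled by the authors to a trimmed mean of 500 on each array (checked with 2% trimmed at each end). No depth exists for arrays; their number limits the precision.

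Computed here: log2(signal + 16), so fold changes of dim genes are understated; 1 probe set per gene, the brightest, taken from the 34958 probe sets that carry 1 gene symbol (932 carried several, 9211 were unlisted); genes above the array median on at least 3 arrays. R 4.3.3 and limma 3.58.1 (lmFit, eBayes with an intensity trend) fitted the 4 groups together, with 8 residual and 5.85 prior degrees of freedom, and Benjamini-Hochberg adjustment ran over 12264 genes at 0.05. Errors after ± are standard errors. The fit was tested on simulated data. The same-numbered arrays of different groups did not deviate together (r from -0.296 to 0.212 over 18 pairs, 4 above 0.1), so no pairing was used.

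Named are the 12 genes of lowest p in each direction (none was called), the 3 lowest-p members of each of 31 lists, the 8 lowest-p diet calls per genotype and Esr1. Other genes, including further list members, were chosen after their values were seen. The contrast, lists and rule were chosen with earlier results of these data known. The alternatives numbered 26.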

Additional observations from a re-analysis of the deposited data

Results flagged for a closer look

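In 11 of the 24 genes of lowest p, all 3 high-fat arrays lay on one side of the 3 normal-diet arrays in WT and on the opposite side in aERKO. Over all genes this occurred in 60 of 12264 (0.489%). The 24 were chosen by the same contrast, so the number among them is a description. The difference itself was tested with limma in each, and none passed after Benjamini-Hochberg adjustment over all genes. On the higher side these were Nat8f5 (response difference 1.57, adjusted p = 0.177), Tsc22d1 (0.92, adjusted p = 0.28), C130026I21Rik (1.50, adjusted p = 0.28), Armc9 (1.98, adjusted p = 0.28) and Neurod2 (3.23, adjusted p = 0.28). On the lower side they were C8b (-1.14, adjusted p = 0.203), Pnn (-1.03, adjusted p = 0.203), Avpr1a (-1.16, adjusted p = 0.279), Cyp7b1 (-1.24, adjusted p = 0.437), Atf2 (-0.62, adjusted p = 0.437) and Tle1 (-0.69, adjusted p = 0.437). The other probe set of Tle1 was negative in both genotypes, at -0.43 in WT and -0.54 in aERKO. Its response difference was -0.10 ± 0.19. For Pnn, 1 further probe set was at 0.08 in WT and 0.04 in aERKO, and another at 0.05 and -0.31. C130026I21Rik, Armc9 and Neurod2 had groups wholly below the array median, as given above, so their values rest on signal near the floor. All 11 kept the sign of their response difference under every alternative that gave a value. They were chosen by low p on the same arrays, which made a kept sign likely. A kept sign also does not test whether the genotypes moved in opposite directions.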

How the results depend on the processing

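The count of response differences past an adjusted p of 0.05 was 0 with the deposited scaling, and it stayed 0 under every alternative but 2. With the acinar and muscle scores as covariates it was 1, Igfbp2 (-1.56). Leaving out each array in turn gave 0 to 2, the 2 being Cyp2b13 and Leap2 without aERKO high-fat array 3. With array quality weights 1245 genes had an unadjusted p under 0.05, against 728, and 0 passed. Leaving out the 4 arrays with pancreatic transcripts leaves 1 WT high-fat array, which is assumed to vary like the others.

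Diet calls moved more. The 9 calls in WT became 5 with no filter, 24 with genes above the median on all 12 arrays, 1 with median centring, 0 without the intensity trend (938 at an unadjusted p under 0.05), 21 with array weights, 0 without the 4 arrays with pancreatic transcripts (907 at an unadjusted p under 0.05), 4 with the covariates and 14 without the 2 arrays of highest muscle signal, an alternative chosen after seeing the data. Leaving out 1 array gave 2 to 20. The 59 calls in aERKO became 22 with median centring, 26 with the mean of all probe sets, 12 without the intensity trend, 187 with array weights, 18 without the 4 pancreatic arrays, 26 with the covariates and 16 without the 2 muscle arrays. Leaving out 1 array gave 13 to 81. The causes were not tested. With the replicate number as a block the counts were 0, 6 and 51, and 740 response differences had an unadjusted p under 0.05. The numbers do not pair the arrays.

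Of the single genes named, the 24 of lowest p kept their sign under every alternative run, which their choice by low p made likely. Signs turned for others, some with sizeable reported values (Elane 0.91, Prom1 0.80, Krt19 0.51, Col5a1 0.46 and Eno3 -0.45 among them). By setting these were Alas2 (-0.01) with a pseudocount of 64; Alas2 (-0.01) and Esr1 (-0.02) with median centring; Bhmt (-0.08) with quantile normalization; Cyp27a1 (0.40), Txnrd1 (-0.01), Flt4 (0.04), Car3 (0.06) and Esr1 (-0.22) as the mean of all probe sets. For Cyp27a1 that mean includes a probe set above the array median on 0 arrays. With array weights the genes whose sign turned were Acvr1c (-0.17), Car3 (0.07), Ces2a (0.04) and Gamt (0.03). Without the 4 pancreatic arrays they were Cd163 (0.24), Col5a1 (-0.02), Prom1 (-0.45), Krt19 (-1.64), Ccl5 (-0.10), Alas2 (0.00), Acvr1c (-0.18), Car3 (0.12), Ces2a (0.03) and Esr1 (-0.14). Car3 was at 0.02 with the covariates and 0.08 without the 2 muscle arrays. Leaving out 1 array gave -0.14 to 0.22 for Alas2, -0.32 to 1.23 for Krt19, -0.26 to 0.24 for Esr1, -0.11 to 0.06 for Car3, -0.13 to 0.07 for Ces2a, -0.15 to 0.14 for Gamt, -0.82 to 0.02 for Ms4a1, -0.06 to 0.64 for Acvr1c, -0.83 to 0.17 for Eno3 and -0.01 to 1.42 for Elane.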
